A study of Mus musculus with 19 samples.

Results

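Immunoglobulin kappa variable (Igkv) genes encode the V segments of the kappa light chain of antibodies. They make up 103 of the 27179 rows of the expression table, and were taken by a symbol that starts with Igkv in either case, since 1 row (Igkv1-35) is written in capitals, and without regard to their values. RNA was measured by sequencing polyA RNA of splenocytes from 19 mice of the FCG model, 1 week after immunization with heat-killed Streptococcus pneumoniae (HKSP). The groups allow kappa V gene use to be compared by chromosome complement within each gonadal sex and by gonadal sex within each complement. XXF mice (n = 5) were XX with ovaries, XYF mice (n = 4) were XY with ovaries, XXM mice (n = 5) were XX with testes, and XYM mice (n = 5) were XY with testes. The FCG model separates Sry from the Y chromosome by means of an autosomal transgene. XXM and XYM mice carry the transgene, and XYF and XYM mice carry a Y chromosome without Sry. The mice came from B6.Cg-Tg(Sry)2Ei Srydl1Rlb/ArnoJ males bred with C57BL/6J females. Every mouse was immunized, so these data hold no unimmunized level of any gene. The sources used here do not give the age of these mice.

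A developing B cell joins a V segment to a J segment of the kappa locus by V(D)J recombination and transcribes the product with the constant gene Igkc. A spleen therefore holds many B cells and plasma cells that use different V genes, and a cell that divides or turns into a plasma cell adds RNA of its own V gene. Phosphorylcholine on the pneumococcal cell wall is bound by well-known mouse antibodies with light chains from Igkv7-33, Igkv8-28 or Igkv2-137.

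Each value is 1 library of 1 mouse. Levels are in RPKM, reads scaled by gene length and library size. Whole reads were worked out from the steps between RPKM values, which gave 11263753 to 19962022 reads a library, with 34079 to 141007 on Igkv genes. The share of a gene is its RPKM as a percent of the summed Igkv RPKM of the same mouse. Differences between groups are on the log2(RPKM + 1) scale. A gene is called where the limma fit over all 14186 genes tested gave an adjusted p under 0.1 and a log2 difference over 0.585 in size. A gene was tested if it reached an RPKM of 0.5 in at least 4 mice. The p-values measure the spread between these samples. The summed level of 7 myeloid marker genes set 2 libraries apart: it was 46274 RPKM in XYM 9 and 45582 RPKM in XYF F9, against 3100 to 16096 RPKM in the other mice. Its most abundant gene was S100a9. The Igkv calls that were lost without either library or both are given with each comparison. Markers of B cells, plasma cells, T cells, NK cells, myeloid and erythroid cells were all present, and none in the lists used was at 0 in every mouse.

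Of the 103 rows, 101 were tested and had reads in every mouse. Igkv1-35 had 23 reads in all mice together and was not tested. Igkv13-71-1, which RefSeq lists as a pseudogene, had 0 of 1364013 Igkv reads, which allows a share of up to 0.00022% for counting error alone, and was not tested either. The genes lie on chromosome 6 between positions 67555636 and 70704177 of GRCm38. RefSeq gives 162 Igkv genes there, so the table holds part of the locus. In the annotation 38 of the rows are on the plus strand, as the J genes are, and 64 are on the minus strand, from which a V segment joins by inversion.

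V segments resemble each other, and the sources used here do not say how reads with several matches were counted. The V exon of a row was 94.9% identical to its closest other Igkv gene in the median, with a range of 67.9% to 99.0%. A copy of at least 97% identity exists for 14 rows. Of the 51-base windows of a transcript, a median of 75.5% occurred in no other Igkv transcript, and the lowest was 26.4%, in Igkv4-59. Levels of the genes with few such windows are uncertain.

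Igkv1-110 and Igkv1-117, which differ between males and females, are shown to make plain how alike they are. The last 300 bases of their V exons differ at 10 positions, an identity of 96.7%, and these positions are in capitals. Igkv1-110 is at chr6:68270968-68271267 and Igkv1-117 at chr6:68121528-68121827 on the plus strand of GRCm38.
Igkv1-110: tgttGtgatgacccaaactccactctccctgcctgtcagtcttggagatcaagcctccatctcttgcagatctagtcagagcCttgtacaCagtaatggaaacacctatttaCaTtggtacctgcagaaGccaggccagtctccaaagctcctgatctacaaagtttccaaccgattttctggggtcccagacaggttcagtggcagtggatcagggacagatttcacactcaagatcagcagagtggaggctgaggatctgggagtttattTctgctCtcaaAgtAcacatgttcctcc
Igkv1-117: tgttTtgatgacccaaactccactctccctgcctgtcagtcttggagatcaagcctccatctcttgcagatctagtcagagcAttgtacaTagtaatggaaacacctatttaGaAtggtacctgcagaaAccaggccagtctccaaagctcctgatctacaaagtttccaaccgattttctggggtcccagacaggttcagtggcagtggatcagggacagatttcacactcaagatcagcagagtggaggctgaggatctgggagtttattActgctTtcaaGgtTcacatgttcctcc

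Igkv5-39 and Igkv3-2 had the largest differences between XX and XY mice over both sexes, and Igkv7-33, Igkv8-28 and Igkv2-137 are the phosphorylcholine light chain genes. Their last 60 germline bases are shown because they hold the start of the third complementarity-determining region, the part of the V segment next to the J join. Capitals mark the last in-frame TGT or TGC codon and the bases after it. Igkv5-39 (chr6:69900424-69900483), Igkv7-33 (chr6:70058632-70058691) and Igkv8-28 (chr6:70143593-70143652) are on the minus strand. Igkv3-2 (chr6:70699008-70699067) and Igkv2-137 (chr6:67556157-67556216) are on the plus strand. All windows of Igkv5-39 and Igkv2-137, and 99.7% of those of Igkv7-33, were found in no other Igkv transcript. For Igkv8-28 it was 83.4% and for Igkv3-2 79.6%. Sequences are from the GENCODE transcripts of build GRCm38.
Igkv5-39: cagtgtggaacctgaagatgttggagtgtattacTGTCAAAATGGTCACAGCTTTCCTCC
Igkv3-2: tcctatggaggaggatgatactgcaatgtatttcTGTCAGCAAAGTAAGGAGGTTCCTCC
Igkv7-33: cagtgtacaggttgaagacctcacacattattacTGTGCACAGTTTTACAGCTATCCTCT
Igkv8-28: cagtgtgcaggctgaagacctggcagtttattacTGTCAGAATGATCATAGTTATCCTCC
Igkv2-137: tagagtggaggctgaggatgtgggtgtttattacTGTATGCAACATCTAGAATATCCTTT

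The summed Igkv level was lower in XX than in XY mice of both gonadal sexes. In XXF mice it was 8466, 11230, 9181, 6316 and 8121 RPKM (F1 to F5), and in XYF mice 13405, 13610, 18944 and 13804 RPKM (F6 to F9). In XXM mice it was 7943, 8303, 8208, 11744 and 9511 RPKM (2, 5, 6, 7 and 8), and in XYM mice 13196, 19994, 16194, 13897 and 13221 RPKM (12, 13, 15, 16 and 9). Every XX mouse lay below every XY mouse of its gonadal sex, and the highest values were in XYF F8 and XYM 13. The means were 8663 ± 1781 RPKM in XXF (SD, n = 5), 14941 ± 2674 in XYF (SD, n = 4), 9142 ± 1575 in XXM (SD, n = 5) and 15300 ± 2896 in XYM (SD, n = 5). XYF mice thus had 1.72 times the level of XXF mice, and XYM mice 1.67 times that of XXM mice. No p is given for this sum. Igkv reads were 0.307% of all reads in XXF, 0.525% in XYF, 0.325% in XXM and 0.542% in XYM mice. The sum covers 103 of the 162 Igkv genes, so it is not the whole of the kappa RNA. Per RPKM of Igkc it was 0.590 in XXF, 0.518 in XYF, 0.415 in XXM and 0.628 in XYM mice. Fewer cells, less RNA per cell and a different share of kappa RNA on the rows counted cannot be told apart in these data.

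Igkv5-39 and Igkv3-2 were left out of the sum as a choice made after seeing the data, since they differ most between XX and XY mice, so that a smaller ratio was fixed by the choice. Without them the mean sum was 8051 RPKM in XXF and 10715 RPKM in XYF mice, a ratio of 1.33. The female groups then overlapped, with XXF mice up to 10692 RPKM and XYF mice from 8967 RPKM. In males the same sum was 8919 and 13478 RPKM. The male groups did not overlap, with XXM mice up to 11457 RPKM and XYM mice from 11977 RPKM. Igkc, the constant gene that every kappa transcript shares, was not called in either sex (adjusted p 0.249 in females and 0.856 in males). It was at 11477, 23244, 22026, 9048 and 13237 RPKM in XXF mice, and at 28989, 25127, 31334 and 29850 RPKM in XYF mice. XXM mice had 22052, 18911, 29846, 22738 and 19588 RPKM of it, and XYM mice 17246, 27327, 28607, 28914 and 22188 RPKM. The female groups did not overlap for Igkc, whereas the male groups did.

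Markers of antibody-making cells were read beside these sums, and their part in them was not tested. The 10 plasma cell markers, of which Jchain was the most abundant, summed to 799.6, 1556, 1568, 726.6 and 998.1 RPKM in XXF mice. They summed to 1860, 1559, 1917 and 1382 RPKM in XYF mice. Of these 10 genes, 2 (Tnfrsf17 and Derl3) were called lower in XXF than in XYF mice, where 0.712% of all genes were. In XXM mice the sums were 1455, 1374, 1031, 1347 and 1275 RPKM, and in XYM mice 1097, 1560, 1733, 1120 and 1622 RPKM. None of the 10 was called between XXM and XYM mice by limma, where 2.96% of all genes were. The female groups overlapped between 1382 and 1568 RPKM, and all XXM mice lay within the range of the XYM mice or, for XXM 6, just below it. The 10 B cell markers, led by Cd79b, summed to 2720 to 3307 RPKM in XXF, 1480 to 2906 in XYF, 4011 to 4775 in XXM and 2523 to 4229 in XYM mice. Here XX mice were on the higher side, unlike in the Igkv sum: 2 of the 10 genes were called with XXF above XYF mice, and 1 with XXM above XYM mice. Of all genes 0.670% were called with XXF above XYF mice and 1.13% with XXM above XYM mice.

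**Figure D1:**
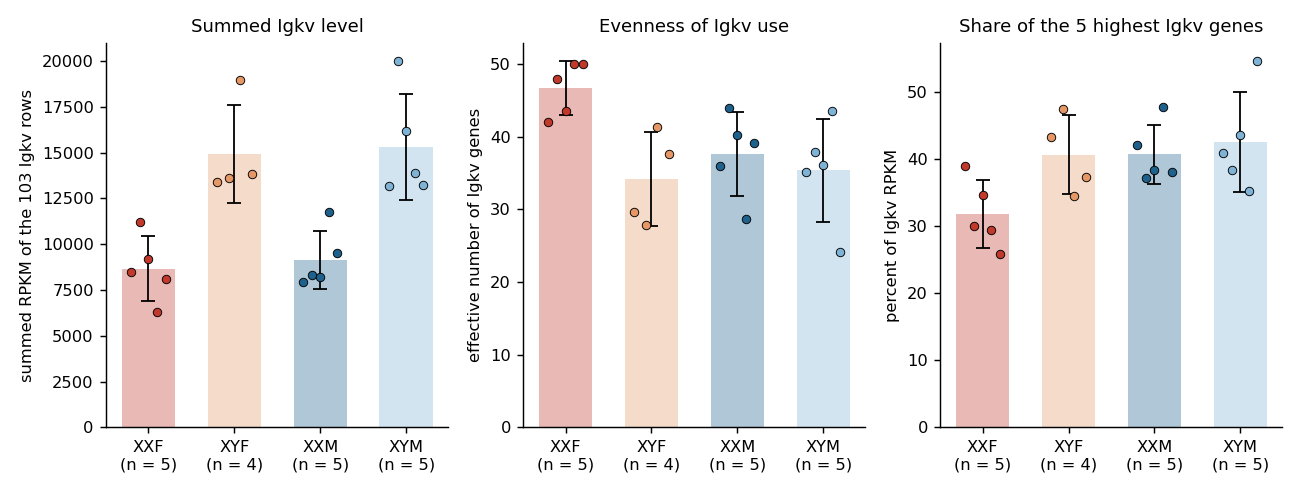
Summed RPKM of the 103 Igkv rows, effective number of Igkv genes and share of the 5 highest Igkv genes in each mouse (points), with group means (bars) and SD (lines). The XX groups have means of 8663 and 9142 RPKM, below the XY means of 14941 and 15300 RPKM.

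Use of the genes was uneven in every mouse. The median shares of the 12 most used genes summed to 40.7%, 25 genes had a median share of at least 1%, and 29 had one under 0.1%. The effective number of genes, the exponential of the Shannon entropy of the shares, was 46.7 ± 3.70 in XXF (SD, n = 5), 34.1 ± 6.47 in XYF (SD, n = 4), 37.6 ± 5.75 in XXM (SD, n = 5) and 35.4 ± 7.07 in XYM mice (SD, n = 5). Single mice ran from 24.2 in XYM 9 to 50.0 in XXF F4 and F5. Every XXF mouse, from 42.0 to 50.0, was above every XYF mouse, from 27.8 to 41.4, while the male groups overlapped. The order of the female means turned without Igkv5-39 and Igkv3-2, 2 genes chosen after seeing the data: the mean was then 46.4 in XXF and 52.0 in XYF mice. Igkv5-39 leads in every XYF mouse, so taking it out evens the other XYF shares by construction. The share of the 5 most abundant genes was 31.8% in XXF, 40.7% in XYF, 40.7% in XXM and 42.5% in XYM mice, and was highest in XYM 9, at 54.6%. Without those 2 genes it was 31.7% in XXF and 25.1% in XYF mice.

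The most abundant Igkv gene depended on the group. Igkv1-110 came out on top in all 5 XXM and all 5 XYM mice, with shares of 12.7% to 31.8%. Igkv5-39 did so in all 4 XYF mice, with 19.1% to 30.8%, and in XXF F1 and F5, with 11.9% and 5.76%. The other XXF mice had Igkv12-46 (F2, 9.51%), Igkv3-5 (F3, 11.7%) and Igkv7-33 (F4, 10.6%) on top. The XXF mice thus had 4 different genes on top, and the other groups the same gene in every mouse. The widest 95% Wilson interval of these shares, taken over reads, spanned 0.917 percentage points, which covers counting error only.

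**Figure D2:**
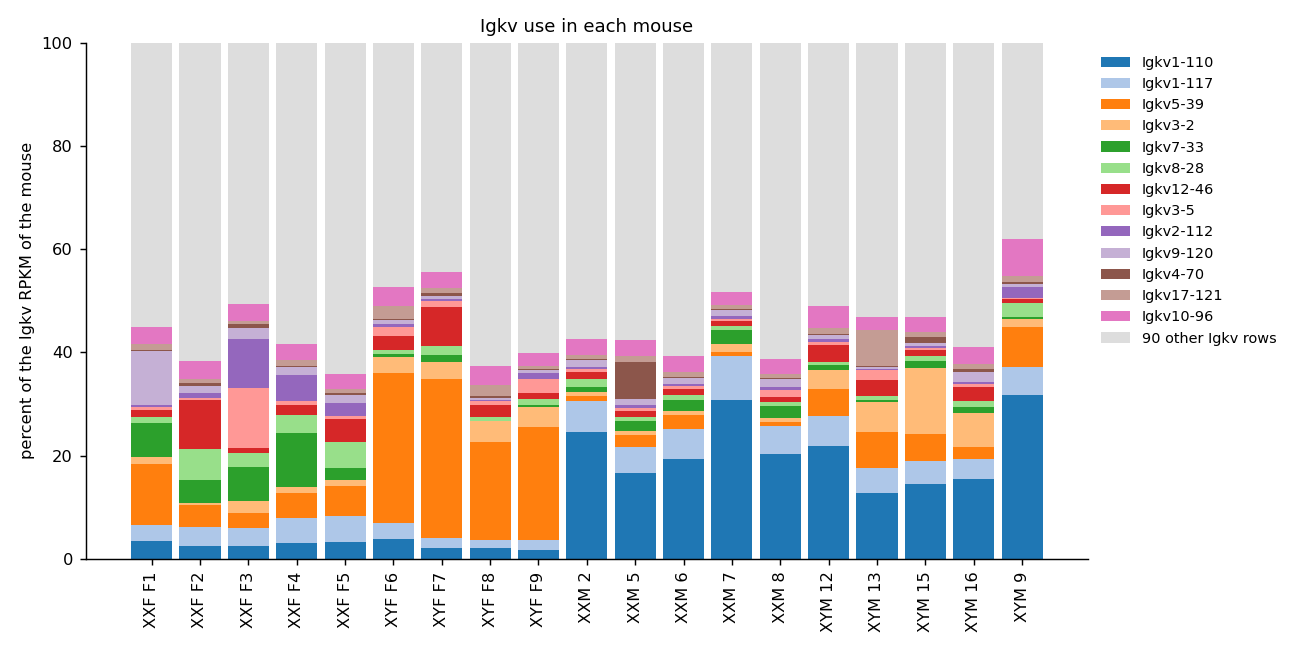
Percent of the Igkv RPKM of each mouse that 13 Igkv genes and the other rows took. Igkv1-110 is the largest part in the 10 males, with 12.7% to 31.8%, and Igkv5-39 in the 4 XYF mice, with 19.1% to 30.8%.

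Shares can be compared between mice by their overlap, the sum over genes of the smaller of the 2 shares. Within groups its median was 70.6% in XXF (10 pairs), 75.4% in XYF (6 pairs), 80.6% in XXM (10 pairs) and 68.9% in XYM (10 pairs). Between groups the median ran from 54.1% for XYF with XXM mice to 69.9% for XXM with XYM mice. Pairs of XXM mice overlapped by 76.3% to 83.9%, the highest median of any group. Pairs of an XXM and an XYF mouse overlapped by 50.3% to 57.7%.

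Igkv1-110, a kappa V gene on the far side of the locus from the J genes, was at 283.9, 270.4, 231.5, 191.3 and 261.0 RPKM in XXF mice. It was at 511.5, 281.4, 384.9 and 233.2 RPKM in XYF mice. In XXM mice it reached 1954, 1376, 1589, 3605 and 1925 RPKM, and in XYM mice 2892, 2541, 2333, 2141 and 4209 RPKM. All 10 males were above all 9 females, while XX and XY mice overlapped within each sex. The log2 difference of males minus females was 3.01 ± 0.19 (SE, adjusted p 1.39e-08), and the exact permutation p of 3.15e-05 is the smallest that the 31752 arrangements can give. Each of the 19 mice left out in turn gave a difference of 2.90 to 3.11. The summed Igkv level without this gene was 8415 RPKM in XXF, 14588 in XYF, 7052 in XXM and 12477 in XYM mice.

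Igkv1-117, the near copy of Igkv1-110, went the same way to a lesser extent. It was at 267.5, 414.4, 321.5, 310.0 and 416.4 RPKM in XXF mice and at 423.3, 263.0, 291.2 and 277.0 RPKM in XYF mice. Levels in XXM mice were 478.6, 426.2, 473.3, 1003 and 520.8 RPKM, and in XYM mice 762.7, 988.6, 745.5, 537.2 and 703.2 RPKM. The lowest male value, in XXM 5, was just above the highest female value, in XYF F6. The log2 difference was 0.97 ± 0.16 (SE, adjusted p 0.000473). Of the 51-base windows of Igkv1-117, 50.8% occur in no other Igkv transcript, and of those of Igkv1-110, 49.9%. Reads of either gene may thus be counted on the other. Reads of Igkv1-110 counted on Igkv1-117 may be part of the difference of Igkv1-117, which was not tested.

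Igkv5-39 differed by both chromosome complement and gonadal sex. It was at 1008, 487.2, 264.2, 299.9 and 468.1 RPKM in XXF mice, and at 3893, 4185, 3624 and 3014 RPKM in XYF mice. Values in XXM mice were 69.7, 182.4, 219.9, 100.5 and 76.4 RPKM, and in XYM mice 689.7, 1402, 829.7, 327.7 and 1017 RPKM. XX and XY mice did not overlap in either sex, and the order of the group levels was XYF, XYM, XXF, XXM, in which XYM and XXF mice overlapped. The log2 difference was -3.02 ± 0.43 for XXF minus XYF (SE, adjusted p 0.00144) and -2.71 ± 0.40 for XXM minus XYM mice (SE, adjusted p 0.00349). Over both sexes it was -2.87 ± 0.29 for XX minus XY (SE, adjusted p 1.84e-05), and for males minus females it was -2.09 ± 0.29 (SE, adjusted p 0.000121). It was called in all of these comparisons whichever mouse was left out. The difference between the XX effects in females and males was -0.31 ± 0.59 (SE, adjusted p 0.771).

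Igkv3-2 lies next to the outermost gene on the J side of the locus. It was at 115.2, 50.7, 204.2, 72.4 and 86.4 RPKM in XXF mice, and at 418.9, 458.5, 761.8 and 548.3 RPKM in XYF mice. Male levels were 58.8, 75.0, 69.0, 186.7 and 74.9 RPKM in XXM mice, and 482.2, 1136, 2089, 913.2 and 226.5 RPKM in XYM mice. All 10 XX mice were below all 9 XY mice, with XXF F3 and XXM 7 closest to XYM 9. For Igkv3-2, XX minus XY on the log2 scale was -2.48 ± 0.51 in females (SE, adjusted p 0.0265) and -3.14 ± 0.48 in males (SE, adjusted p 0.00462). For males minus females its difference was 0.17 ± 0.35 (SE, adjusted p 0.745).

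Of the other genes called lower in XX mice, Igkv4-61 was at 22.6, 22.1, 13.2, 11.1 and 23.2 RPKM in XXF mice and at 48.9, 178.8, 77.0 and 99.1 RPKM in XYF mice. Male levels of this gene were 27.2, 19.4, 19.7, 13.2 and 15.5 RPKM in XXM and 20.6, 194.1, 25.0, 35.4 and 41.3 RPKM in XYM mice. XYF F7 and XYM 13 were highest, the female groups did not overlap and the male groups did. The log2 difference of XX minus XY was -1.74 ± 0.34 (SE, adjusted p 0.00861).

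Igkv10-96, with a median share of 3.19%, was at 280.6, 406.7, 311.0, 205.8 and 231.8 RPKM in XXF mice and at 490.5, 434.8, 705.3 and 351.2 RPKM in XYF mice. Its male levels were 242.5, 249.3, 250.5, 310.7 and 268.2 RPKM in XXM and 562.7, 480.6, 456.8, 457.5 and 953.9 RPKM in XYM mice. The male groups did not overlap, XYM 9 was highest, and in females XXF F2 overlapped with XYF F9. XX minus XY was -0.78 ± 0.23 on the log2 scale in females (SE, adjusted p 0.118, not called) and -1.08 ± 0.22 in males (SE, adjusted p 0.0296).

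Igkv17-121 was at 106.8, 72.6, 58.6, 70.5 and 70.8 RPKM in XXF mice and at 329.0, 138.1, 407.1 and 92.7 RPKM in XYF mice. For males its levels were 71.1, 98.1, 79.8, 83.3 and 87.8 RPKM in XXM and 171.2, 1386, 141.8, 136.8 and 152.2 RPKM in XYM mice. XYM 13 stood far above the rest, the male groups did not overlap, and XXF F1 was above XYF F9. Over both sexes the log2 difference was -1.46 ± 0.37 (SE, adjusted p 0.0448), and neither sex alone was called.

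Igkv13-85 was at 32.1, 56.5, 32.6, 43.1 and 51.3 RPKM in XXF mice and at 85.5, 118.5, 92.9 and 49.5 RPKM in XYF mice. Its levels in males were 57.3, 74.2, 38.2, 54.4 and 35.5 RPKM in XXM and 74.0, 103.8, 114.7, 95.1 and 174.0 RPKM in XYM mice. Only XYF F9 and XYM 12 lay within the range of the XX mice of their sex. On the log2 scale XX minus XY was -1.03 ± 0.19 (SE, adjusted p 0.00542).

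Of the 12 most used genes, 5 were not called in any comparison by limma. Igkv1-135, with a median share of 2.51%, was at 220.3 to 346.4 RPKM in XXF, 221.2 to 366.2 in XYF, 250.3 to 423.6 in XXM and 197.5 to 313.7 in XYM mice. Igkv6-15 (2.18%) was at 174.5 to 323.5 RPKM in XXF, 146.8 to 614.5 in XYF, 163.4 to 256.2 in XXM and 122.2 to 308.3 in XYM mice. All groups overlapped in RPKM for both genes, but the shares of Igkv1-135 did not overlap between XXM (3.15% to 5.10%) and XYM mice (0.988% to 2.38%). Igkv19-93 (1.87%) was at 134.6 to 651.8 RPKM in XXF, 193.1 to 809.5 in XYF, 115.3 to 192.6 in XXM and 157.7 to 1203 in XYM mice. Every XYF mouse was thus above every XXM mouse. Igkv16-104 (1.61%) and Igkv4-59 (1.55%) overlapped between all groups in RPKM.

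**Figure D3:**
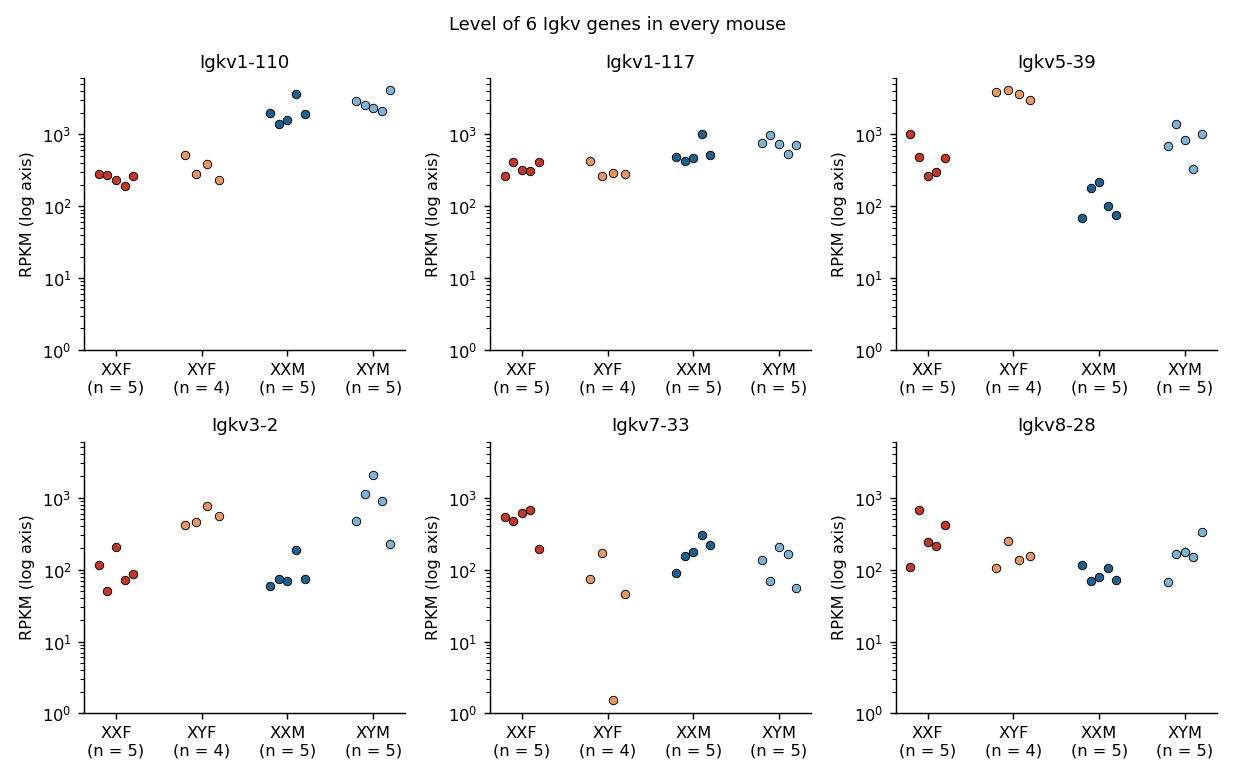
Level of 6 Igkv genes in every mouse, in RPKM on a log axis. The 10 males lie above the 9 females for Igkv1-110, and the 10 XX mice lie below the 9 XY mice for Igkv3-2.

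Igkv7-33, of the phosphorylcholine light chain genes, was the only Igkv gene called with XX above XY mice. It was at 546.2, 480.7, 611.8, 669.7 and 193.3 RPKM in XXF mice, and at 73.0, 169.4, 1.52 and 46.0 RPKM in XYF mice. In XXM mice it was at 88.8, 153.5, 176.9, 301.8 and 217.1 RPKM, and in XYM mice at 138.1, 69.9, 204.4, 164.3 and 54.8 RPKM. The female groups did not overlap, with XXF F5 near XYF F7, and XYF F8 was far below all other mice. The male groups overlapped. The log2 difference of XXF minus XYF was 3.72 ± 0.83 (SE, adjusted p 0.0376, exact permutation p 0.00794). Without XYF F8 it was 2.46, and without XYF F9 it was 3.87 but no longer called (adjusted p 0.116). With the female groups alone in the fit it was not called either (adjusted p 0.197). In males the difference was 0.63 ± 0.78 (SE, adjusted p 0.61), and the difference between the female and male effects, 3.10 ± 1.13, was not called (SE, adjusted p 0.156).

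Igkv8-28 was at 107.4, 680.6, 244.2, 214.2 and 414.3 RPKM in XXF mice and at 106.8, 248.0, 137.5 and 153.5 RPKM in XYF mice. In XXM mice it was at 114.6, 70.0, 79.9, 105.6 and 72.5 RPKM, and in XYM mice at 66.9, 166.9, 174.6, 152.0 and 337.2 RPKM. XXF F2 and F5 stood highest, and all groups overlapped with at least 1 other. The log2 difference of males minus females was -0.81 ± 0.31 (SE, adjusted p 0.0567). It was not called without XXF F2 (-0.64), XYF F7 (-0.69) or XYM 12 (-0.65). Igkv8-28 is 97.8% identical to Igkv8-19.

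Igkv2-137 was at 90.0, 91.2, 106.6, 123.6 and 86.1 RPKM in XXF mice and at 94.2, 115.1, 105.9 and 183.5 RPKM in XYF mice. XXM mice had 187.1, 94.3, 360.1, 141.7 and 239.9 RPKM, and XYM mice 228.6, 166.5, 338.6, 352.6 and 196.5 RPKM. XXM 5 lay among the females, XXM 7 and XYM 13 lay below XYF F9, and the other males were above every female. The log2 difference of males minus females was 0.96 ± 0.21 (SE, adjusted p 0.00378). Of the 3 genes of this family of antibodies, Igkv8-28 was thus called lower and Igkv2-137 higher in males, and Igkv7-33 was called with XXF above XYF mice. By mean share Igkv7-33 and Igkv8-28 were both highest in XXF mice, at 6.08% and 3.70%. Igkv8-28 took 1.11% in XYF, 0.984% in XXM and 1.21% in XYM mice. Its mean share in XYM mice was thus not below that in XYF mice. The heavy chain gene of the best known of these antibodies, Ighv7-1, has no row in the table.

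Across the Igkv genes, 6 of 101 were called between XXF and XYF mice, or 5.94%, against 1.38% of all genes. Of these, 1 was higher in XXF, where 0.670% of all genes were, and 5 were lower, where 0.712% were. The lower genes besides Igkv5-39 and Igkv3-2 were Igkv4-61 (-2.29, adjusted p 0.0333), Igkv3-10 (-1.61, adjusted p 0.0998) and Igkv6-23 (-1.25, adjusted p 0.0826). Igkv3-10 lost its call without any of 14 of the 19 mice, Igkv6-23 without any of 9, and Igkv4-61 without XYF F9 (-2.25, adjusted p 0.125). Without XYF F9, Igkv3-10 was at -1.23 and Igkv6-23 at -1.02, and Igkv7-33 lost its call as given above. Without XYF F9 and XYM 9 together 7 genes were called, 4 of them among the 6, and the calls lost were Igkv3-10 (-1.23, adjusted p 0.296) and Igkv6-23 (-1.02, adjusted p 0.234). The count was 13 without XYF F7, 10 without XYM 9 and 3 without XYF F9. Here and below, counts over all genes with a mouse left out are not given. Such changes are thus not shown to be particular to Igkv genes. Among all genes, median ratio rescaling gave 65 higher and 119 lower genes in place of 95 and 101.

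Between XXM and XYM mice 7 of 101 Igkv genes were called, or 6.93%, against 2.96% of all genes. All 7 were lower in XXM, where 1.83% of all genes were, and none was higher by limma, where 1.13% of all genes were. Besides Igkv3-2 and Igkv5-39 they were Igkv5-45 (-1.60), Igkv13-84 (-1.20), Igkv13-85 (-1.09), Igkv10-96 (-1.08) and Igkv17-127 (-0.69). Of these 5 genes, only Igkv10-96 was called whichever mouse was left out. The count was 3 without XXM 2, XXM 6 or XYM 13, 4 without XXM 5 or XYM 12, 14 without XYM 15 and 16 without XYM 9. The counts over all genes in these fits are not set beside them. With every gene that had a read in the fit, and no filter, it was 4.

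The comparison over both gonadal sexes uses the same mice as the 2 above and is given beside them. In it 18 of 101 Igkv genes were called between XX and XY mice, or 17.8%, against 1.72% of all genes. Igkv7-33 was higher in XX, where 0.515% of all genes were, and 17 genes were lower, where 1.21% were. Of the 101 log2 differences 84 were below 0, with a median of -0.47, against a median of 0.03 over all genes tested. Igkv7-33 was at 2.17 (adjusted p 0.0483). After Igkv5-39 and Igkv3-2 the largest of the lower genes were Igkv4-61 (-1.74, adjusted p 0.00861), Igkv17-121 (-1.46, adjusted p 0.0448), Igkv4-55 (-1.41, adjusted p 0.0956) and Igkv5-45 (-1.34, adjusted p 0.0439). The others called were Igkv3-10, Igkv13-85, Igkv13-84, Igkv10-94, Igkv10-96, Igkv6-23, Igkv6-14, Igkv14-111, Igkv3-3, Igkv5-43 and Igkv17-127, with differences of -1.26 to -0.59. Without XYF F7 the count was 28.

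Some of the 18 genes are near copies of each other and may share reads: Igkv5-43 and Igkv5-45 are 99.0% identical and Igkv17-121 and Igkv17-127 98.0%. Igkv13-84 and Igkv13-85 are each other's closest gene, with 51.9% of the windows of each found in no other Igkv transcript. Many of these XX and XY calls lay near the thresholds. Igkv4-55 lost its call without any of 15 of the 19 mice, Igkv3-3 without any of 14, Igkv5-43 without any of 13, and Igkv10-94 and Igkv17-127 without any of 10. Igkv14-111 (-0.71) and Igkv6-23 (-0.80) lost theirs without XYF F9. The other 11 were called whichever mouse was left out. Without XYF F9 and XYM 9 together the count was 14, of which 11 were among the 18. The 7 lost were Igkv7-33 (2.12, adjusted p 0.108), Igkv3-10 (-1.08, adjusted p 0.107), Igkv6-14 (-0.88, adjusted p 0.113), Igkv4-55 (-1.52, adjusted p 0.117), Igkv10-94 (-0.92, adjusted p 0.208), Igkv5-43 (-0.61, adjusted p 0.209) and Igkv3-3 (-0.66, adjusted p 0.237). Left out alone, XYF F9 ended the calls of Igkv10-94 (-0.93), Igkv3-3 (-0.66), Igkv4-55 (-1.31) and Igkv5-43 (-0.61), and XYM 9 those of Igkv10-94 (-0.96), Igkv3-3 (-0.76), Igkv5-43 (-0.63) and Igkv17-127 (-0.58).

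A further fit held the summed Igkv level. With the log2 of that sum as a covariate, no Igkv gene was called by limma between XXF and XYF, XXM and XYM or XX and XY mice. The median difference of XX minus XY over the 101 genes was then 0.233 in place of -0.467, and that over all genes 0.075 in place of 0.027. The sum itself separates XX from XY mice in each sex, so the level of single genes and of the whole cannot be told apart by this fit. For Igkv5-39, which is itself a large part of the sum, the difference in this fit was -2.66 in females and -2.38 in males and was not called (adjusted p 0.33 and 0.462). Some other differences of XX minus XY changed little in size over both sexes, as for Igkv13-85 (-0.95) and Igkv5-45 (-1.65), and some fell to near 0, as for Igkv3-10 (-0.00), Igkv4-55 (-0.06) and Igkv17-121 (-0.16). The calls among all genes tested fell as well, from 244 to 8.

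The XXF minus XYF and the XXM minus XYM differences come from separate mice. Of the 101 Igkv genes, 67 (66.3%) were lower in XX mice of both sexes and 4 (3.96%) were higher in both. Over all genes tested the same shares were 19.8% and 30.9%. Genes are not independent replicates, since each mouse adds to all of them.

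**Figure D4:**
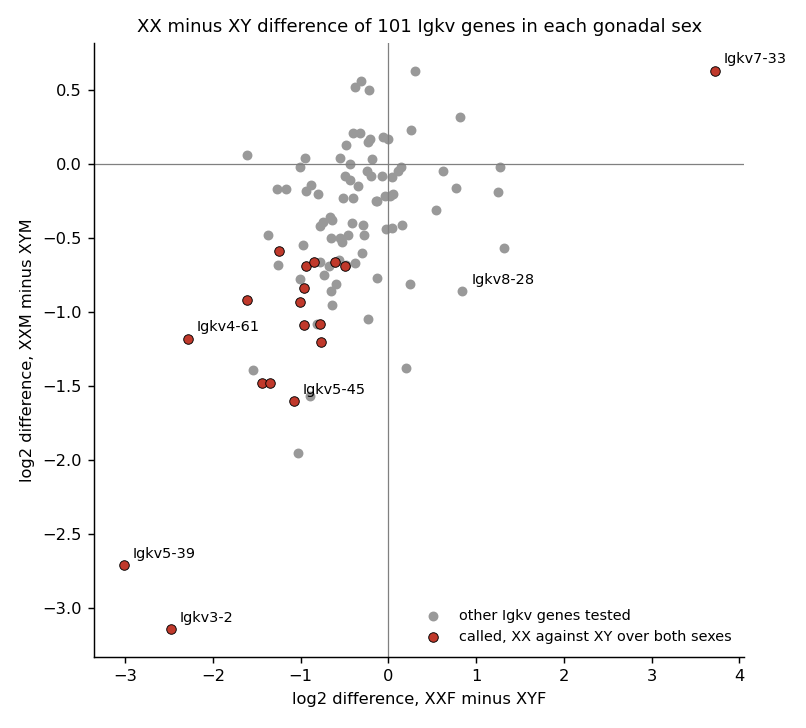
Log2 difference of XX minus XY mice for 101 Igkv genes in females (horizontal axis) and males (vertical axis), with the 18 genes called over both sexes in red. Most points lie in the lower left, with 67 genes lower in XX mice of both sexes, and Igkv7-33 stands apart at 3.72 and 0.63.

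Between males and females over both chromosome complements 10 of 101 Igkv genes were called, or 9.90%, against 7.32% of all genes. The count itself is near that background. Higher in males were 7 (6.93%, against 1.96% of all genes) and lower were 3 (2.97%, against 5.36%). The differences were spread around 0, with 51 of 101 below 0 and a median of -0.00. Besides the genes given above, Igkv4-81 (1.01), Igkv1-133 (0.65), Igkv4-60 (0.64) and Igkv12-41 (0.62) were higher in males, and Igkv3-9 (-0.84) was lower. GENCODE lists Igkv4-60 as a pseudogene. It is 97.7% identical to Igkv4-53 and had 3 to 50 reads a mouse. Igkv4-81 was at 4.34 to 5.74 RPKM in XXF, 1.47 to 5.21 in XYF, 5.91 to 50.7 in XXM and 3.52 to 16.4 in XYM mice, with XYM mice overlapping both female groups. It was called whichever mouse was left out, and the other 4 lost their call without any of 4 to 8 mice. The calls lost without XYF F9 were Igkv12-41 (0.49) and Igkv3-9 (-0.73), without XYM 9 Igkv1-133 (0.43) and Igkv3-9 (-0.64), and without both libraries all 3 (0.56, -0.54 and 0.43 for Igkv12-41, Igkv3-9 and Igkv1-133). The count was 6 without XYF F6 and 16 without XYF F8.

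No Igkv gene was called by limma for a difference between the XX effects in females and males, where 0.0846% of all genes were. At an unadjusted p under 0.05 there were 6 of 101 Igkv genes (5.94%) and 2979 of all genes (21.0%), so the Igkv share was the lower one. Limma-voom on recovered reads called 0 Igkv genes as well. Without XYM 9 the count was 2, and without XXF F3 or XYF F8 it was 1.

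Single mice also stood out for single genes. A rise was defined as a share of at least 2% that is also at least 4 times the median share of that gene over the 19 mice. There were 24 rises, in 14 genes and 13 mice. A gene that is high in several mice of a group can count in each of them, as Igkv7-33 did in XXF F1, F3 and F4. Igkv1-110 did not count in any male, since its median share was itself 12.7% and its highest 31.8%. The number of rises in a group thus depends in part on the definition. XXF mice had 13 of them, with 2 or 3 in each mouse. XYF mice had 6, of which 3 were Igkv5-39 in F6, F7 and F9. XXM mice had 2 and XYM mice 3.

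The largest rise over the median was Igkv4-70 in XXM 5, at 7.27% against a median of 0.338%, or 21.5 times. Igkv3-5 in XXF F3 was at 11.7%, or 20.4 times its median share. Both levels are uncertain. Of the windows of Igkv4-70, 96.0% identical to Igkv4-59, 37.1% occur in no other Igkv transcript. For Igkv3-5, 98.1% identical to Igkv3-10, it is 50.0%. Igkv2-112 in XXF F3 was at 9.41%, or 15.7 times. Igkv4-70 rose in no other mouse, Igkv3-5 also rose in XYF F9 (2.55%), and Igkv2-112 also rose in XXF F4 and F5.

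Igkv9-120 reached 10.4% in XXF F1, Igkv12-46 reached 9.51% in XXF F2 and 7.55% in XYF F7, and Igkv17-121 reached 6.93% in XYM 13. Igkv3-2 reached 12.9% in XYM 15. Igkv7-33 rose in XXF F1, F3 and F4. Of the 14 genes, 7 rose in 1 mouse only. The number of rises was 41 at 3 times the median and 8 at 8 times.

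By family, defined by the number before the hyphen, Igkv1 (10 rows) took 11.5% of the Igkv RPKM in XXF, 8.20% in XYF, 33.4% in XXM and 27.5% in XYM mice. Igkv5 (5 rows) took 8.66%, 27.9%, 4.09% and 8.22% in the same order. Single genes were a large part of both: Igkv1-110 alone took 2.91%, 2.40%, 22.3% and 19.3%. Igkv5-39 alone took 5.93%, 25.2%, 1.48% and 5.48%. Igkv4, the largest family with 28 rows, took 12.8%, 12.7%, 13.1% and 12.3%. Its share ran from 8.82% to 20.1% in single mice, and the groups overlapped.

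Along the locus the 35 rows farthest from the J genes took 38.2% of the Igkv RPKM in XXF, 28.4% in XYF, 54.9% in XXM and 49.3% in XYM mice. The 34 rows in the middle took 27.0%, 46.1%, 20.5% and 25.6%, and the 34 rows nearest the J genes 34.8%, 25.5%, 24.6% and 25.0%. Without Igkv1-110, Igkv5-39 and Igkv3-2 the farthest rows took 39.4%, 37.8%, 43.5% and 43.7%, and the middle rows 23.4%, 30.4%, 25.2% and 28.9%. The nearest rows then took 37.3%, 31.7%, 31.4% and 27.4%, and their mean was still highest in XXF mice. XXF mice, at 32.5% to 43.5%, then overlapped with XYF (up to 33.1%), XXM (up to 37.5%) and XYM mice (up to 35.3%). The farthest rows overlapped between all groups without these genes. Plus-strand genes took 38.3%, 29.9%, 54.7% and 51.6% of the Igkv RPKM. Without Igkv1-110 and Igkv5-39 they took 38.8%, 37.9%, 42.5% and 42.9%.

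**Figure D5:**
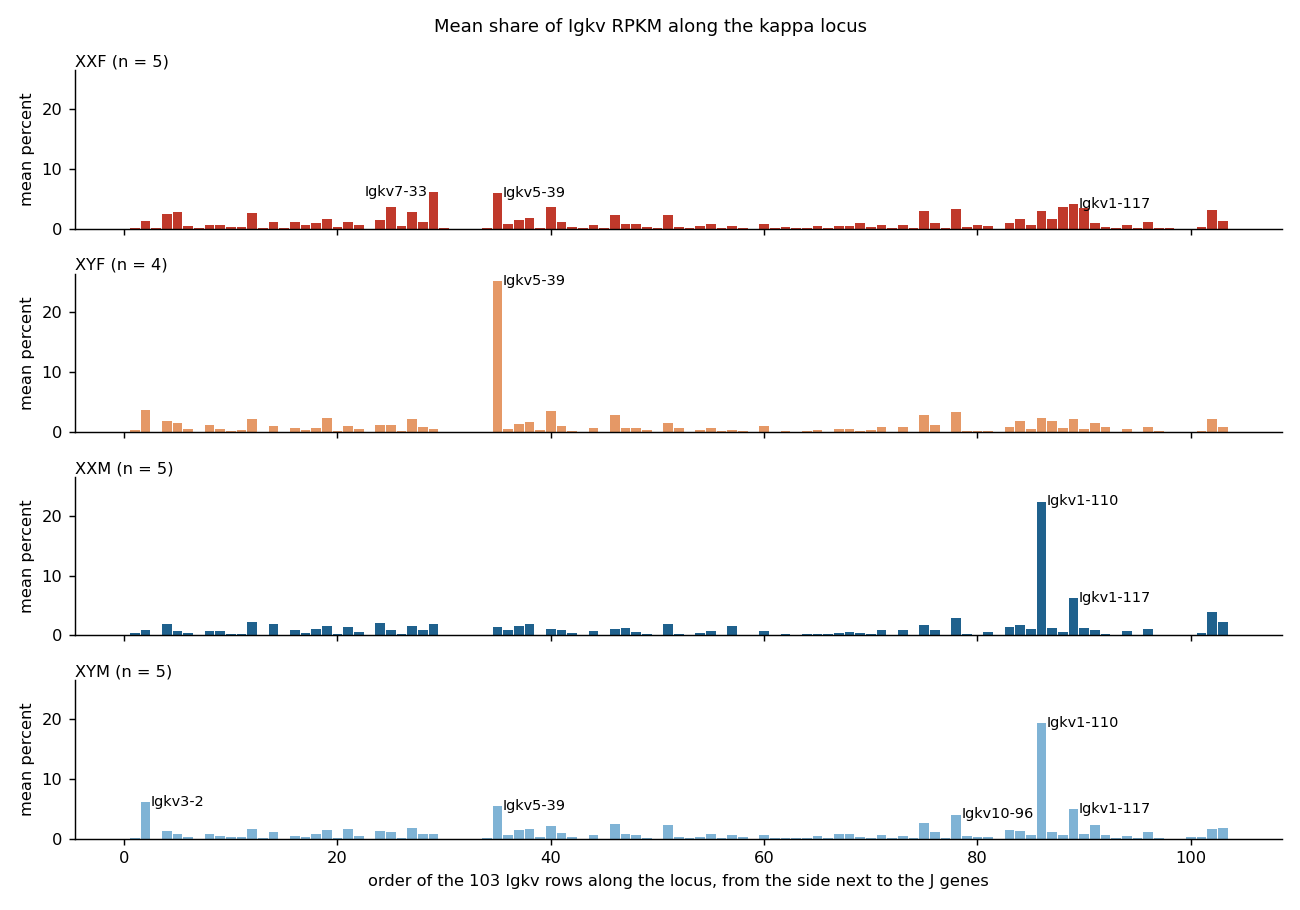
Mean share of the Igkv RPKM for the 103 Igkv rows in their order along the kappa locus, from the side next to the J genes, for each group. The highest bars are Igkv5-39 in XYF mice and Igkv1-110 in XXM and XYM mice.

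A rearranged V segment is joined to a J gene. The shares below are of RPKM on the J rows. They do not count joins, since a read on a J row need not come from the J gene that was joined. Igkj1 took 23.9%, 23.4%, 20.8% and 17.4% of the summed Igkj RPKM in XXF, XYF, XXM and XYM mice. Igkj2 took 24.0%, 24.6%, 31.5% and 29.1%, and Igkj5 took 27.1%, 29.0%, 20.1% and 22.1%. The group means of Igkj4 ran from 16.4% in XXF to 19.1% in XYM mice. Igkj3 took 8.50%, 5.05%, 9.93% and 12.3%, with 3.07% to 6.62% in XYF and 8.42% to 15.6% in XYM mice, which did not overlap. Of the 6 kappa constant and joining genes, Igkj2 and Igkj3 were called higher in males, and Igkj4 and Igkj5 were called lower in XX mice. Of all genes 1.96% were called higher in males and 1.21% lower in XX mice.

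The ratio of kappa to lambda V genes was also read, with lambda as the sum of Iglv1, Iglv2 and Iglv3. Kappa was 9.93 times lambda in XXF, 13.4 times in XYF, 8.60 times in XXM and 13.4 times in XYM mice. XXM 5 had 2923 RPKM of lambda V genes, mostly Iglv1 at 2546 RPKM, and a ratio of 2.84. The other mice had ratios of 6.04 to 15.7. None of the 6 lambda genes was called between XX and XY mice by limma in either sex. Of all genes 1.38% were called in females and 2.96% in males.

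Heavy chain constant genes give the antibody class, and Ighm was the most abundant of those read here. Of 8 genes, 4 were called lower in XXF than in XYF mice: Ighg3 (-2.14), Ighg2b (-1.85), Ighg2c (-1.77) and Ighg1 (-1.21). Of all genes 0.712% were called lower in XXF mice. Ighg2c was called lower in XXM than in XYM mice too (-2.17), where 1.83% of all genes were. Between males and females 4 genes were called higher in males, Ighg3, Ighg2b (1.68), Ighd (0.97) and Ighg1 (0.70), and Ighg2c was called lower (-1.08). Of all genes 1.96% were called higher and 5.36% lower in males. Ighg3 was higher in males by 2.45 (adjusted p 5.53e-06), with 125.5 to 420.8 RPKM in XXF, 448.9 to 1674 in XYF, 1583 to 2696 in XXM and 1807 to 3598 in XYM mice. Males were thus above XXF mice without overlap.

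Of the 10 genes of V(D)J recombination, 9 were tested and none was called in any comparison by limma. Over all genes 0.0846% (differing XX effects) to 7.32% (males and females) were called, so none among 9 genes is near that share. The sum of the recombination genes, led by Xrcc6, was 67.5 to 81.1 RPKM over the 19 mice. Rag1, which cuts at the recombination signals, was between 0.0971 and 3.97 RPKM, highest in XYM 9, and Rag2 was not tested. Of 14 factors that act on kappa transcription, none was called between XXF and XYF mice, and Pax5 was called with XXM above XYM mice (0.90, adjusted p 0.0602). Spib, Irf4, Pax5 and Rel were called higher in males, by 0.79, 0.73, 0.66 and 0.69. Of all genes 1.96% were called higher in males and 1.13% higher in XXM than in XYM mice. Between XXF and XYF mice 1.38% of all genes were called, and between XX and XY mice 1.72%. Of the 24 recombination and kappa transcription genes, 0 were called by limma in either comparison. Without XYF F8 both of these counts were 1. The XX and XY count was also 1 without XXF F1 or XXM 7, and 2 without XYF F7 or XYM 15. The count of 1 between XXM and XYM mice was 2 without XXF F1 or XXF F3, 0 without XXM 2, XXM 5, XXM 6, XYM 12, XYM 13 or XYM 16, 3 without XYM 9 and 4 without XYM 15.

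Other cell types moved with the same groups, and their part in the Igkv differences was not tested. Over all genes tested, 0.515% were called higher and 1.21% lower in XX mice, and 1.96% higher and 5.36% lower in males. Set against XYF mice, 0.670% were called higher and 0.712% lower in XXF mice. Set against XYM mice, 1.13% were called higher and 1.83% lower in XXM mice. Of 6 NK cell markers, led by Gzma, 5 were called with XX above XY mice, and their sums were 387.6 to 521.9 RPKM in XXF, 83.1 to 238.3 in XYF, 311.1 to 374.7 in XXM and 60.3 to 278.2 in XYM mice. Of 8 T cell markers, led by Cd3g, 7 were called lower in males, 3 (Cd4, Cd8a and Cd8b1) with XXM below XYM mice, and 1 (Trat1) with XXF above XYF mice. Their sums were 784.2 to 1123 RPKM in XXF, 382.8 to 1030 in XYF, 223.1 to 351.3 in XXM and 226.2 to 488.6 in XYM mice. Of 10 B cell markers, 8 were called higher in males. All 5 erythroid markers tested, led by Hbb-bs, were called lower in males, and 2 (Hba-a1 and Hba-a2) with XXM above XYM mice, with sums of 12542 to 28517 RPKM in XXF, 15447 to 47349 in XYF, 7194 to 14212 in XXM and 1537 to 14227 in XYM mice. Of 6 proliferation markers, led by Top2a, 4 were called lower in males and 1 in XX mice, with sums of 46.3 to 372.8 RPKM. Of 7 myeloid markers, 1 (Cd14) was called lower in males and 0 between XXF and XYF mice by limma. Their sums were 4078 to 5842 RPKM in XXF, 7334 to 45582 in XYF, 4160 to 6304 in XXM and 3100 to 46274 in XYM mice. Every XYF mouse was thus above every XXF mouse, as for the Igkv sum, while the male groups overlapped.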

How the data were processed

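Splenocyte polyA RNA of 19 mice was sequenced, 1 library a mouse. The authors used subread (mm10) and featureCounts and deposited log2 RPKM values, which equal log2(RPKM + 1) with 0.0001 added. Their versions, annotation and strand setting, and how multiply matching reads were treated, do not appear in the sources used here. The labels name a NEBNext Ultra library kit, the methods a KAPA stranded mRNA kit.

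The 14186 genes that reached an RPKM of 0.5 in 4 or more mice were fitted together with limma 3.58.1 in R 4.3.3 (4 group means, eBayes with trend, two-sided), and p-values were adjusted over all of them. The thresholds for a call, an adjusted p of 0.1 and a log2 difference of 0.585, are those of the study's methods. Exact permutation tests were two-sided. Whole reads were recovered from the steps of the RPKM values for limma-voom. The fit and the recovery were tested on simulated data. Sequences and identities came from GENCODE M21 transcripts (GRCm38), compared with edlib 1.3.9.post1. Other steps ran in Python 3.11.15 with pandas 2.3.3, numpy 2.4.6, matplotlib 3.10.9 and scipy 1.17.1.

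The members and lists were chosen with earlier results of these data known. Named genes are the 12 with the highest median share, those called, those highest in a mouse, those with a rise (at most the 12 largest), the phosphorylcholine light chain genes and the genes of the lists; an item withheld for evaluation is not reported here.

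Alternatives were 0.1 added to the RPKM, no filter, an RPKM of at least 1, median ratio rescaling, limma-voom, the compared groups alone, the summed Igkv level as a covariate, no fold threshold, an adjusted p under 0.05, and each mouse left out. For the repertoire measures they were recovered reads, no pseudogenes and no close copies, and for rises other limits. Leaving out XYF F9 with XYM 9, or Igkv5-39 with Igkv3-2, or Igkv1-110, and the alternatives for the recombination and kappa transcription genes, were chosen after seeing the data.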

Additional observations from a re-analysis of the deposited data

Results flagged for a closer look

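In 168 groups of 4 or 5 mice, over 39 named Igkv genes and 3 repertoire measures, 17 values lay far from the rest of their group by the gap to the nearest mouse over the range. Chance gives about 1 in 20 groups, but some of the genes were named for a high value in a mouse, so the 10.1% found cannot be set against that rate. Values of genes are log2(RPKM + 1).

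In XXF mice, Igkv3-5 in F3 was at 10.07 (the others at 5.43 to 5.64) and Igkv3-9 in F3 at 4.37 (1.74 to 2.11). Igkv7-33 in F5 was at 7.60 (8.91 to 9.39) and Igkv4-60 in F1 at 1.60 (2.08 to 2.21), the last on 9 reads against 14 to 16 in the others. In XYF mice, Igkv17-127 in F8 was at 7.76 (6.80 to 6.91) and Igkv4-81 in F9 at 1.30 (2.54 to 2.63), on 10 reads against 21 to 31. The summed Igkv level of XYF F8 was 18944 RPKM, against 13405 to 13804 RPKM in the other XYF mice.

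In XXM mice, Igkv4-70 in XXM 5 was at 9.24 (4.04 to 4.34) and Igkv3-5 in XXM 8 at 6.95 (5.43 to 5.70). Igkv1-117 in XXM 7 was at 9.97 (8.74 to 9.03) and Igkv3-2 in the same mouse at 7.55 (5.90 to 6.25). In XYM mice, Igkv17-121 in XYM 13 was at 10.44 (7.11 to 7.43) and Igkv9-120 in XYM 16 at 7.97 (6.33 to 6.77). In XYM 9, Igkv10-96 was at 9.90 (8.84 to 9.14), Igkv3-9 at 0.66 (2.33 to 2.87; 4 reads against 23 to 41), Igkv6-15 at 6.94 (7.94 to 8.27) and Igkv6-17 at 5.92 (7.51 to 7.66).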

How the results depend on the processing

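Of 41 calls of single Igkv genes, 5 held in every alternative and with every mouse left out, and 21 held with every mouse left out. Of 300 values under other settings 235 kept their call and 63 lost it. With the summed Igkv level as a covariate 33 of the 41 calls were lost, the counts of Igkv genes called fell to 0 for XXF and XYF, XXM and XYM, and XX and XY mice, and 2 differences of XX minus XY turned: Igkv10-94 to 0.37 and Igkv6-23 to 0.01. The covariate separates the groups by itself.

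The count between XXM and XYM mice was 7, but 3 at an adjusted p under 0.05, 4 without the filter and 16 without XYF F9 and XYM 9. The count of differing XX effects was then 1 in place of 0. With single mice left out the Igkv counts ranged from 3 to 13 (XXF and XYF), 3 to 16 (XXM and XYM), 12 to 28 (XX and XY), 6 to 16 (males and females) and 0 to 2 (differing effects). Counts over all genes in these fits are not given, so the ranges are not shown to be particular to Igkv genes. The cause was not tested.

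For the recombination and kappa transcription genes the ranges were 0 to 1, 0 to 4, 0 to 2, 3 to 6 and 0 to 6. Their count between XXM and XYM mice was 0 at an adjusted p under 0.05 and with the covariate, and 3 without XYF F9 and XYM 9, where the differing effects also gave 3. Between XX and XY mice it was 1 without a fold threshold and with 0.1 added to the RPKM. Between males and females it was 13 without a fold threshold. The cause was not tested, apart from the thresholds, which admit more or fewer genes by construction.

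Without close copies the effective number fell to 40.2 in XXF and 31.1 in XXM mice. Without Igkv5-39 and Igkv3-2 it was 52.0 in XYF and 46.4 in XXF mice, which turns their order, the top 5 share in XYF mice was 25.1% (31.7% in XXF) and the XYF to XXF ratio of the sums was 1.33. Without Igkv1-110 the effective number was 53.6 in XXM and 45.2 in XYM mice, and the top 5 shares were 27.2% and 33.3%: taking out a leading gene evens the rest by construction. The number of rises was 41 at 3 times the median and 8 at 8 times, against 24. The comparisons over all 4 groups already used every group, so a fit of the compared groups alone was not run for them. With 34079 or more Igkv reads a mouse, depth limits only the rarest genes.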
